A study of Mus musculus with 10 samples.

Results

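Genes of mitochondrial protein import and folding were examined in blood stem cell-enriched bone marrow cells with and without Mll, the histone methyltransferase encoded by Kmt2a. The set was taken by name: every gene whose symbol began with Timm or Tomm and a digit, and 13 further genes of import, processing, folding and proteolysis. Of the 18193 genes with a probe set naming that gene alone, 34 were members, comprising 15 Timm genes, 8 Tomm genes and 11 of the 13 further genes. The remaining rule genes Tomm5, Tomm6, Phb and Dnajc19 were represented by 8 probe sets that also name another gene, and are given no value here. Each member was read from its brightest single-gene probe set, by the mean of the 10 arrays.

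Nearly all mitochondrial proteins are made in the cytosol and carried in unfolded. The TOM complex of the outer membrane is the common gate, and the SAM complex inserts barrel-shaped proteins into that membrane. Small Tim chaperones escort hydrophobic proteins across the intermembrane space to the TIM22 complex, which inserts carriers into the inner membrane, while the TIM23 complex and a motor built on the chaperone mortalin (Hspa9) draw proteins with a presequence into the matrix. There a peptidase removes the presequence, the chaperonin Hsp60 (Hspd1) with its lid Hsp10 (Hspe1) folds the protein, and proteases such as Clpp and Lonp1 degrade what is damaged. Blood stem cells are known for low mitochondrial activity at rest, which increases as they enter the cycle or differentiate.

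The cells were sorted as LSK/CD48-, marrow cells without mature lineage markers or CD48 that carry Sca-1 and Kit, from females aged 8 weeks on a B6.SJL-Ptprca Pep3b/BoyJ background. The 5 Mll-deficient mice had the genotype Mx1-cre;Mll F/F, in which both Mll alleles carry loxP sites and cre is driven by the interferon-inducible Mx1 promoter, and the 5 control mice were Mll F/F without cre. All 10 mice received pI:pC, an interferon-inducing double-stranded RNA mimic, in 3 doses given 48 hours apart, each of 10 µg for every gram of mouse and a further 50 µg, and marrow was taken on day 6. Because the Mx1 promoter responds to interferon in many tissues, deletion is not confined to blood cells, and effects of cre and of Mll loss cannot be told apart here. RNA of 1500 to 10000 sorted cells per mouse was amplified and hybridised to 1 Affymetrix whole-genome mouse array.

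The deposited values are MAS5 signal intensities in arbitrary units, scaled to the same trimmed mean on each array (2% trimmed at each end). Summed signals are not equalised by this. Over all tested genes the sum was 7.62e+06 to 9.92e+06 in controls (median 7.70e+06) and 7.82e+06 to 8.97e+06 in Mll-deficient samples (median 8.52e+06). Log2 values and differences here are of the signal plus 16, which understates the change of dim genes. The brighter probe set of Kmt2a itself ranged from 170 to 399 in controls and from 52.2 to 304 in Mll-deficient samples, and its log2 difference of -0.38 ± 0.36 (SE, adjusted p = 0.610) did not pass the test; where it lies relative to the deleted part was not analysed here, so it does not check the labels. Control replicate 5 was unlike the rest of its group: it correlated with them at 0.926 on average, where the other 4 controls had 0.952 to 0.960, and its 3' to middle ratio of control probe sets, a sign of RNA quality, was 5.24 on the log2 scale. The control group averaged 2.97 ± 1.42 for that ratio, and the Mll-deficient group 3.16 ± 0.60 (SD, n = 5 each). Of 9 stem cell and sort-gate genes found, all were above the filter on dim genes, and Mecom, Hlf and Ptprc fell. Kit lay between 27.7 and 181 over the arrays, and Procr between 258 and 2058. The 9 include Cd48, the marker excluded by the sort, which spanned 44.1 to 197 over the arrays. Its log2 difference was 0.25 (adjusted p = 0.722, limma). Lying above the filter is therefore no check on the purity of the sort. Ly6a, the gene of Sca-1, was not found. On a list of 19 erythroid genes, 14 passed as higher and 5 did not, where 3.76% of all tested genes passed as higher and 1.76% as lower. The summed signal of the list ranged from 7252 to 13525 in controls and from 24325 to 31133 in Mll-deficient samples. The lowest mean signal of a listed gene over all arrays was 17.0, but single arrays read as low as 0.517 for Epb42 and 0.549 for Trim10. Slc4a1 read 579 ± 1215 in controls (SD, n = 5), with 2751 on its highest array. The summed signal of granulocyte and monocyte genes was high in both groups (134663 to 185150 in controls and 133779 to 229506 in Mll-deficient samples). Of 16, 0 passed in either direction and 10 had a difference above 0, against 46.6% of all tested genes. The median log2 difference was 0.12, but the genes were spread. Elane, Ctsg, Mpo, Prtn3 and Ms4a3 lay between 0.67 and 0.97, Mmp9 and Itgam at -1.03 and -0.73, and the rest between -0.22 and 0.25. Of 6 tested lymphoid genes, Il7r fell by 1.37 on the log2 scale (adjusted p = 0.0443) and 5 did not pass (median -0.89), with a summed signal of 3188 to 9716 in controls and 1334 to 4737 in Mll-deficient samples, and Cd3e and Cd3g lay below the filter. Of 7 megakaryocyte genes, 0 had a difference above 0 (median -0.30), and the summed signal was 1726 to 4716 in controls against 1395 to 2631. The part of other cells in the results that follow was not tested, and in RNA of whole cell samples a larger share of cells with more mitochondria and more RNA of these genes per cell cannot be told apart.

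Of the 34 members, 32 lay above the filter on dim genes (set at the 40th percentile of probe set means), in the control group alone as well as over all arrays. Of these, 10 rose in Mll-deficient cells, 0 fell and 22 did not pass an adjusted p of 0.05 in limma. Over all 12580 tested genes, 3.76% were called higher and 1.76% lower, 5.52% in all. The risers, from the largest log2 difference to the smallest, were Hspe1, Timm10, Phb2, Timm13, Clpp, Timm8a1, Timm17a, Tomm40l, Hspa9 and Timm23, and 6 of them rose by at least 2-fold. For 9 of the 10, all but Tomm40l, every Mll-deficient array lay above every control array, a pattern seen for 4.42% of all tested genes, with the reverse seen for 2.54%. The median log2 difference over the 32 was 0.56, against -0.04 over all tested genes, and 30 of 32 lay above 0 against 46.6% of all tested genes. Of the 22 that did not pass, 9 had an unadjusted p under 0.05, and 0 of 32 had one with a difference below 0. In all, 19 of 32 had such a p with a difference above 0, against 10.5% of all tested genes. The count of risers was 7 without control replicate 1, 3 or 4 or Mll-deficient replicate 5, where 2.11%, 2.43%, 2.29% and 1.92% of all tested genes were called higher. Without control replicate 5, 14 members rose, where 4.40% of all tested genes were called higher.

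**Figure D1:**
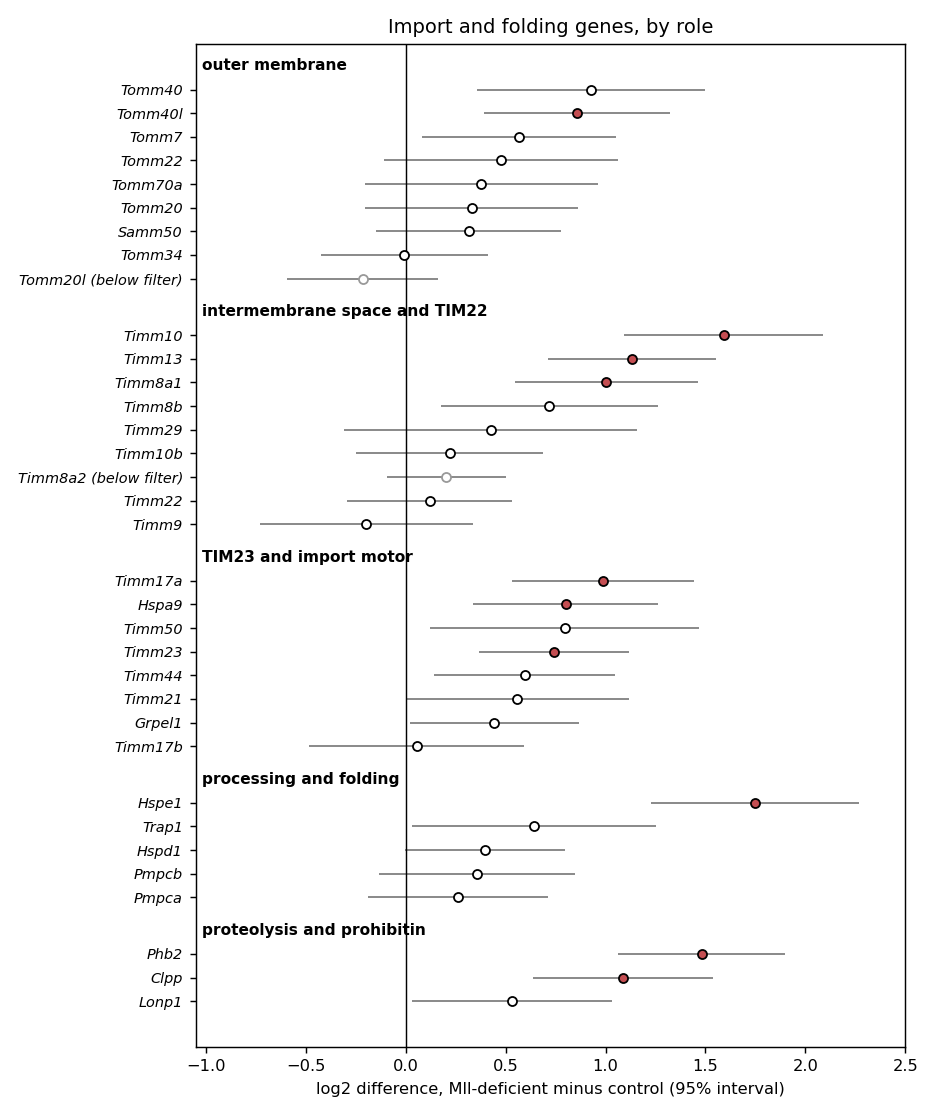
Log2 difference (Mll-deficient minus control) of each of the 34 members with its 95% interval, grouped by role; filled points passed the test, open points did not, and grey points lay below the filter on dim genes. The 10 filled points lie between 0.74 and 1.75, and only Tomm34 (above 0 with median centring), Timm9 and the dim Tomm20l lie below 0.

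Averaged over the 32 tested members, the log2 signal was 9.55, 9.70, 9.84, 9.57 and 9.70 on control arrays 1 to 5, and 10.22, 10.18, 10.27, 10.36 and 10.50 on Mll-deficient arrays 1 to 5. Every Mll-deficient array thus lay above every control array, by an average deviation from the control mean of 0.51 to 0.83. On the Mll-deficient arrays, 26 to 31 of the 32 members lay above their control mean, and on the control arrays 10 to 25 did. Control replicate 5 lay close to the control mean on average, while it was the lowest control for Timm10, Timm8a1, Timm50 and Lonp1 and the highest control for Tomm22, Tomm70a, Samm50 and Hspd1.

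**Figure D2:**
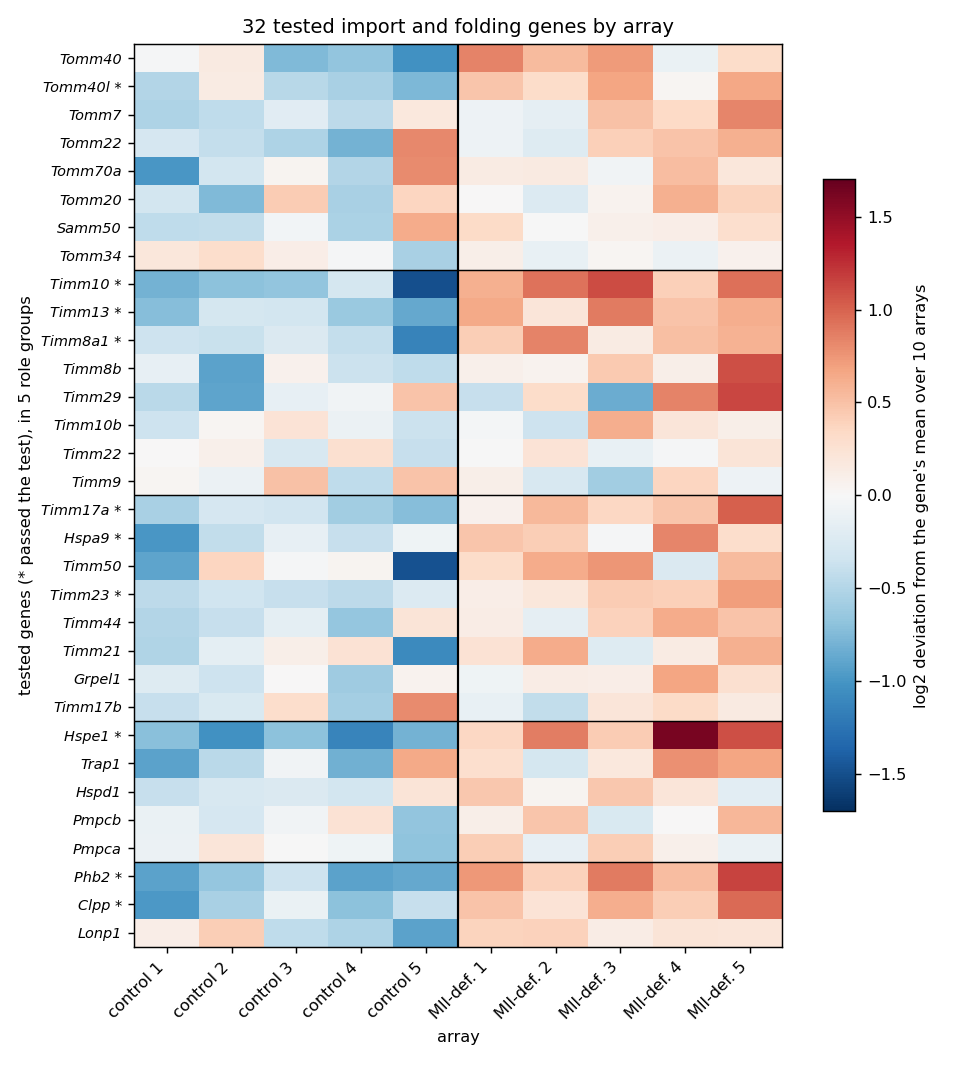
Log2 deviation of each tested member from its own mean over the 10 arrays (colour scale), with arrays in columns, genes in rows by role, and an asterisk for the 10 that passed the test. The starred rows turn mostly from blue to red between the control and the Mll-deficient arrays, while rows such as Timm17b, Tomm34 and Timm9 show no such step.

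Promoter sequences were read because several members moved together and because Hspe1 and Hspd1 are neighbours. RefSeq sequences (build GRCm38.p6, 250 bases before to 50 after a gene's start) matched 30 of the 34 members. Shown are Hspe1, Timm10, Phb2 and Timm13, the 4 members with the largest rises on the chosen probe sets with all arrays. Capitals mark the letters CCGGAAG, the core bound by ETS factors such as GABP, the letters CACGTG, the E-box bound by Myc and Usf factors, and the letters GAA-NN-TTC-NN-GAA, a form of the heat shock element, each on either strand.
Hspe1, chr1:55087898-55088197, plus strand: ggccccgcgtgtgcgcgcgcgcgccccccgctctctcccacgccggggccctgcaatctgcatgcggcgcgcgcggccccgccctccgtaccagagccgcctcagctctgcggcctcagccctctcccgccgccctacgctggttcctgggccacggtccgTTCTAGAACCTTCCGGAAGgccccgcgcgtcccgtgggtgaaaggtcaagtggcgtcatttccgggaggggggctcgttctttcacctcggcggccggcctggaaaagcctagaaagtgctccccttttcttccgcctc
Timm10, chr2:84826771-84827070, plus strand: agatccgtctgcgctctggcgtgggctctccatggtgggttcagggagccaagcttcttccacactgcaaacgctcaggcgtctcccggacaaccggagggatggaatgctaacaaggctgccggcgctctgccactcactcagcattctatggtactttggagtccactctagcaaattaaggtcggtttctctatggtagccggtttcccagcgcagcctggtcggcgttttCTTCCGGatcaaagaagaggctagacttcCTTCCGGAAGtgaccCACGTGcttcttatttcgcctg
Phb2, chr6:124712039-124712338, plus strand: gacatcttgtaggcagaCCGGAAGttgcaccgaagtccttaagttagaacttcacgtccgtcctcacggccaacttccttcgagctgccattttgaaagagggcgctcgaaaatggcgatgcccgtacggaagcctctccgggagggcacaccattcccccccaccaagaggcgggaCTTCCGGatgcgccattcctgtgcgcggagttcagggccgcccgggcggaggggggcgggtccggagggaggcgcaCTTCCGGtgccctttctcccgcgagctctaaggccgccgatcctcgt
Timm13, chr10:80900920-80901219, minus strand: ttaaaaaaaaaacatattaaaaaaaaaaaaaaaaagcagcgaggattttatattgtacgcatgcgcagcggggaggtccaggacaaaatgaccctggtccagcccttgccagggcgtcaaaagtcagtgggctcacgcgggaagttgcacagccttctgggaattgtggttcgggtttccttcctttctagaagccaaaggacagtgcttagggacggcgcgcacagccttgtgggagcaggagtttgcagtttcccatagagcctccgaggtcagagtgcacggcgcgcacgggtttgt
In the Hspe1 window the 19 capital letters, 89 to 71 bases before the start, hold the heat shock letters and CCGGAAG overlapping each other. Timm10 has CCGGAAG on either side of its start, next to the E-box, Phb2 has it at 3 places, and Timm13 has no match to any of the 3 patterns.

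Across the 30 members with a sequence, 16 held CCGGAAG, against 9.93% of all 27025 genes with a promoter in the table and 19.3% of the 10196 among them that were tested here. The letters were present in 5 of the 8 risers with a sequence and in 11 of the 22 other members. The 22 include the untested Timm8a2, which held CCGGAAG, and the untested Tomm20l, which held CACGTG and CCAAT. The motifs were chosen after values had been seen. CACGTG was held by 7 of 30 members, against 8.09% of all genes and 11.6% of tested genes. The heat shock letters were held by Hspe1, Hspd1 and Timm9, against 0.662% of all genes and 0.539% of tested genes. The window of a listed Hspd1 start shares 285 bases with that of Hspe1, among them the heat shock letters and CCGGAAG. At that start Hspe1 and Hspd1 hold the same letters and are not separate matches in either count. GCGC-N-TGCGC, the core bound by NRF1, a regulator of nuclear genes for mitochondria, was held by 3 of 30 (Hspd1, Timm8b and Tomm20), against 5.19% of all genes and 11.1% of tested genes. CCAAT was held by 9 (41.1% of all genes and 42.6% of tested genes) and TATAAA by Timm13 only (15.7% of all genes and 9.15% of tested genes). These are letter matches, not measured binding.

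Among the outer membrane genes, 8 of 9 were tested, 1 rose, 0 fell and 7 did not pass, with a median log2 difference of 0.43. Tomm40l encodes a paralog of the TOM channel. The Tomm40l signal was 229, 367, 233, 221 and 189 on control arrays 1 to 5 and 467, 414, 534, 339.8 and 529 on Mll-deficient arrays 1 to 5. Only Mll-deficient replicate 4 lay within the control range, and Tomm40l rose by 0.86 ± 0.22 (SE, adjusted p = 0.0324). Tomm40, the channel itself, had a larger but noisier difference. The Tomm40 signal was 106, 122, 58.2, 62.6 and 44.8 on control arrays 1 to 5 and 207, 165, 190.5, 99.5 and 139 on Mll-deficient arrays 1 to 5. Mll-deficient replicate 4 again lay among the controls, and the difference of 0.93 ± 0.27 (SE, adjusted p = 0.0547) missed the threshold. Tomm40 passed under 5 of the alternatives that kept every array (quantile normalization, the filter at the 60th percentile, mean of all probe sets, replicate block and RNA quality covariate), and without control replicate 2 or Mll-deficient replicate 4. Tomm20, the receptor for presequences, did not pass either. The Tomm20 signal was 3334, 2457, 5605, 2834 and 5365 on control arrays 1 to 5 and 4185, 3524, 4350.0, 6357 and 5405 on Mll-deficient arrays 1 to 5. The groups overlapped broadly, with control replicates 3 and 5 as high as most Mll-deficient arrays, and the difference was 0.33 ± 0.25 (SE, adjusted p = 0.501).

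The other outer membrane genes were Tomm7, a small stabilising subunit (0.57 ± 0.23 SE, adjusted p = 0.166), Tomm22, the central receptor (0.48 ± 0.28 SE, adjusted p = 0.354), Tomm70a, the receptor for carrier proteins (0.38 ± 0.28 SE, adjusted p = 0.475), and Samm50, the core of the SAM complex (0.32 ± 0.22 SE, adjusted p = 0.449). Tomm34, a cytosolic cochaperone rather than a membrane subunit, was at -0.0074 ± 0.20 (SE, adjusted p = 0.988), which turned to 0.053 when arrays were centred on their medians. Tomm20l, a relative of Tomm20, read between 1.48 and 18.4 on all arrays and was not tested. Without control replicate 5, which was the highest control for Tomm22 and Samm50, both rose (adjusted p = 0.0409 and 0.0496).

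The intermembrane space held some of the largest rises. Of 9 genes of the small Tims and TIM22, 8 were tested, 3 rose, 0 fell and 5 did not pass (median 0.57). Timm10, which forms a hexameric chaperone with Timm9, was among them. The Timm10 signal was 374, 402, 411, 534 and 225 on control arrays 1 to 5 and 1014, 1276, 1452, 881 and 1289.9 on Mll-deficient arrays 1 to 5. Every Mll-deficient array lay above the highest control, and the rise was 1.59 ± 0.23 (SE, adjusted p = 0.00116). Timm13 and Timm8a1 form the other small Tim hexamer, and human TIMM8A is mutated in a deafness and dystonia syndrome. The Timm13 signal was 745, 1004, 994, 789.7 and 668 on control arrays 1 to 5 and 1938, 1428, 2292, 1742 and 1901 on Mll-deficient arrays 1 to 5. The groups were again separate, at 1.13 ± 0.20 (SE, adjusted p = 0.00397). The Timm8a1 signal was 656, 640.0, 706, 633 and 375 on control arrays 1 to 5 and 1124, 1523, 930.4, 1203 and 1278 on Mll-deficient arrays 1 to 5. Control replicate 5 was low here, and Timm8a1 rose by 1.004 ± 0.22 (SE, adjusted p = 0.0134).

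Timm8b, a close relative of Timm8a1, did not pass. The Timm8b signal was 103, 53.5, 122, 85.4 and 80.8 on control arrays 1 to 5 and 124, 121, 163, 125 and 263 on Mll-deficient arrays 1 to 5. Mll-deficient replicate 5 was the highest array by far, replicate 2 lay just within the control range, and the difference was 0.72 ± 0.26 (SE, adjusted p = 0.116). Timm9 was dim, with a signal of 39.5 ± 14.9 in controls and 32.2 ± 11.96 in Mll-deficient samples (SD, n = 5 each), and its difference was -0.20 ± 0.25 (SE, adjusted p = 0.716); its other probe set, also dim, differed in sign, at 0.44 ± 0.28 (SE). Timm10b, a small Tim bound to TIM22 (0.22 ± 0.22 SE, adjusted p = 0.631), Timm22, the insertion channel (0.12 ± 0.20 SE, adjusted p = 0.783), and Timm29, a TIM22 subunit (0.43 ± 0.35 SE, adjusted p = 0.529), did not pass. Timm8a2 read between 0.196 and 8.22 and was not tested.

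All 8 genes of TIM23 and its motor were tested, and 3 rose, 0 fell and 5 did not pass (median 0.67). Timm17a encodes a subunit of the channel that comes in 2 forms. The Timm17a signal was 176, 214, 208, 171 and 153 on control arrays 1 to 5 and 278, 396, 342, 374 and 553 on Mll-deficient arrays 1 to 5. The lowest Mll-deficient array lay above the highest control, and Timm17a rose by 0.99 ± 0.22 (SE, adjusted p = 0.0143). Timm23 is the channel-forming subunit. The Timm23 signal was 2354, 2539, 2451, 2354 and 2742 on control arrays 1 to 5 and 3478, 3672, 4354, 4282 and 5296 on Mll-deficient arrays 1 to 5. The controls varied little, and the rise of 0.74 ± 0.18 (SE, adjusted p = 0.0231), smaller than the others, separated the groups. Hspa9 encodes mortalin, the Hsp70 of the matrix. The Hspa9 signal was 1197, 1791, 2173, 1809 and 2278 on control arrays 1 to 5 and 3327, 3193, 2351, 4249.9 and 2951 on Mll-deficient arrays 1 to 5. The gap between the groups was narrow, and the rise was 0.80 ± 0.22 (SE, adjusted p = 0.0425).

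The call of Hspa9 was lost in 8 of 10 fits with a single array removed (adjusted p up to 0.114 over all alternatives), and those of Timm23 and Tomm40l in 6 each. In contrast, the 7 other risers passed in all 11 alternatives that kept every array and in all 10 fits that left out 1. These alternatives included the mean of all probe sets, but none replaced the chosen probe set by another. Taken alone, the second probe sets of Hspe1, Clpp and Timm8a1 did not pass, as given below, while Phb2 rose on another pair. Timm10, Timm13 and Timm17a had no second probe set. The TIM23 genes that did not pass were Timm50, the presequence receptor (0.80 ± 0.32 SE, adjusted p = 0.164), Timm44, which tethers the motor (0.60 ± 0.21 SE, adjusted p = 0.118), Timm21, which links TIM23 to TOM (0.56 ± 0.26 SE, adjusted p = 0.239), Grpel1, the nucleotide exchange factor of mortalin (0.44 ± 0.20 SE, adjusted p = 0.211), and Timm17b, the other form of Timm17a (0.06 ± 0.25 SE, adjusted p = 0.931). Timm44 passed under 4 of the alternatives that kept every array (quantile normalization, mean of all probe sets, array weights and an RNA quality covariate), and without control replicate 5.

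Of the 5 genes of processing and folding, all tested, Hspe1 rose and 4 did not pass (median 0.40). Hspe1, the lid of the chaperonin, had the largest difference among members on the chosen probe sets with all arrays. With the mean of all probe sets it was 1.23, below Timm10 (1.59) and Phb2 (1.24), and Timm10 also lay above it without Mll-deficient replicate 4 (1.69 against 1.56) or control replicate 4 (1.71 against 1.69). The Hspe1 signal was 187, 146, 188, 136 and 174 on control arrays 1 to 5 and 407, 591, 431, 1003 and 693 on Mll-deficient arrays 1 to 5. The controls lay within a narrow band and every Mll-deficient array stood above it, with a rise of 1.75 ± 0.25 (SE, adjusted p = 7.93e-04). Hspd1, the chaperonin itself, was bright on every array. The Hspd1 signal was 9749, 10538, 10794, 10302 and 14845 on control arrays 1 to 5 and 17527, 13179.8, 17498, 14755 and 11294 on Mll-deficient arrays 1 to 5. Control replicate 5 lay within the Mll-deficient range, and the difference of 0.40 ± 0.19 (SE, adjusted p = 0.247) did not pass. Trap1, an Hsp90 of the matrix, was at 0.64 ± 0.29 (SE, adjusted p = 0.214), and the processing peptidase subunits Pmpca and Pmpcb were at 0.26 ± 0.21 (SE, adjusted p = 0.526) and 0.36 ± 0.23 (SE, adjusted p = 0.414).

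Among the 3 genes of proteolysis and the prohibitin scaffold, Phb2 and Clpp rose and Lonp1 did not pass. Phb2 encodes a prohibitin, which builds ring-shaped scaffolds in the inner membrane that hold proteases and stabilise new proteins. The Phb2 signal was 2229, 2655, 3290.3, 2222 and 2284 on control arrays 1 to 5 and 7028, 5522, 7784, 6056 and 9334 on Mll-deficient arrays 1 to 5. Its lowest Mll-deficient array exceeded its highest control by a wide margin, and Phb2 rose by 1.48 ± 0.20 (SE, adjusted p = 6.58e-04). Clpp is the peptidase of the matrix ClpXP protease. The Clpp signal was 365, 496, 674, 446 and 557 on control arrays 1 to 5 and 1028, 866, 1135, 987 and 1439.7 on Mll-deficient arrays 1 to 5. The groups were separate, with a rise of 1.09 ± 0.21 (SE, adjusted p = 0.00806). Lonp1, the other main matrix protease, was steady among Mll-deficient arrays (1223 to 1474) and spread from 589 to 1500.3 among controls, a difference of 0.53 ± 0.24 (SE, adjusted p = 0.205).

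**Figure D3:**
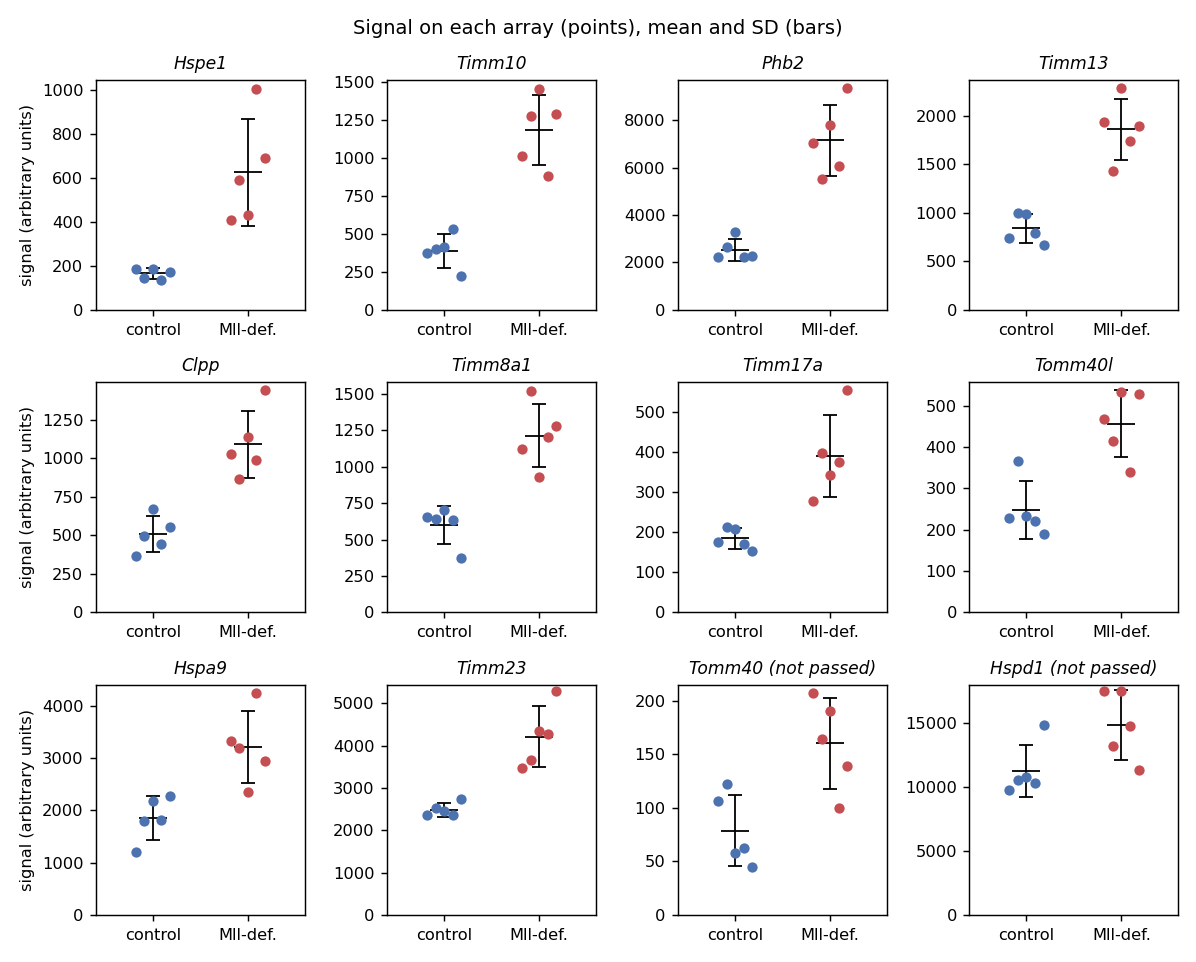
Signal (arbitrary units, axes from 0) of the 10 members that rose and of Tomm40 and Hspd1, which did not pass, on each of the 5 control and 5 Mll-deficient arrays; bars give the mean and SD. For 9 of the risers every red point lies above every blue point, and for Tomm40l Mll-deficient replicate 4 lies within the control range.

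Members differed in how far their other probe sets followed. The 34 members had 74 probe sets, 68 of them above the filter, and in a fit over all 27022 such probe sets 13 passed as higher and 0 as lower, where 2.12% of all probe sets passed as higher. Of the 36 probe sets that were not the ones chosen, 31 had a difference above 0 and 4 passed. Phb2 rose on another pair, by 1.73 ± 0.39 (adjusted p = 0.0242) and 1.29 ± 0.25 (adjusted p = 0.00920), but not on its dimmest (0.47 ± 0.25, adjusted p = 0.325). The chosen Phb2 probe set and that with 1.29 can also detect other transcripts, while that with 1.73 is gene-specific. In that fit the probe set chosen for Hspa9 had an adjusted p of 0.0572, and Hspa9 rose by 0.94 ± 0.22 (adjusted p = 0.0259) on a further probe set of a type that can also detect other transcripts. A brighter, gene-specific probe set of Hspa9 did not pass, at 0.73 ± 0.26 (adjusted p = 0.137), with overlapping groups. Trap1, not called on its brightest probe set, rose on the other (0.91 ± 0.24, adjusted p = 0.0430), from 557 ± 163 to 1022 ± 104 (SD, n = 5 each).

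For Hspe1, the chosen probe set belongs to the type that can also detect transcripts of other genes. Its gene-specific but dimmer probe set went from 48.9 ± 13.2 to 89.9 ± 13.7 (SD, n = 5 each), without overlap, a smaller difference of 0.72 ± 0.22 (SE, adjusted p = 0.0849). Clpp showed the same order, with 0.75 ± 0.25 (SE, adjusted p = 0.116) on its gene-specific probe set. The second probe sets of Timm8a1 (0.40 ± 0.25, adjusted p = 0.430) and Tomm40l (0.35 ± 0.25, adjusted p = 0.506) did not pass. The probe sets chosen for Tomm22, Tomm7, Trap1, Pmpcb, Timm10b, Samm50 and Tomm70a can also detect other transcripts. The brighter gene-specific one of Samm50 differed by 1.06 ± 0.36 (adjusted p = 0.117), with overlapping groups. Gene-specific ones of Tomm70a differed in sign, at 0.69 ± 0.21 without overlap (adjusted p = 0.0813) and -0.18 ± 0.26 (adjusted p = 0.774). Timm10, Timm13, Timm17a and Timm23 each had a single probe set.

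Known partners and paralogs were compared within arrays as the log2 ratio of their signals, for 7 pairs chosen after their values had been seen, by exact permutation of the group labels (two-sided, 252 assignments) with p-values adjusted over the 7. Neither the exact nor the adjusted p-values account for that choice, so they are descriptive only. The ratio of Hspe1 to Hspd1, lid to chaperonin, rose by 1.35 without overlap between the groups (exact p = 0.00794, the smallest possible, adjusted p = 0.0278). It rests on the Hspe1 probe set that can also detect transcripts of other genes. The gene-specific Hspe1 probe set differed by only 0.72 ± 0.22 (SE), against 0.40 ± 0.19 (SE) for Hspd1, and its ratio to Hspd1 was not tested. In RefSeq these genes lie head to head on chromosome 1, and the window of 1 of the 2 listed Hspd1 starts shares 285 of its 300 bases with the Hspe1 window printed above, on the opposite strand. When all probe sets of each gene were averaged, the ratio rose by 0.84 and the adjusted p was 0.0556. The ratio of Timm17a to Timm17b rose by 0.93 (exact p = 0.00794, adjusted p = 0.0278), and by 0.67 without control replicate 5 (adjusted p = 0.0556). The Timm17b probe set used can also detect other transcripts, and the gene-specific one differed by 0.19 ± 0.30 (SE). The ratio of Timm10 to Timm9 rose by 1.79 (exact p = 0.0159, adjusted p = 0.0370), with overlapping groups and resting on the dim Timm9 probe set.

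For the other 4 pairs the test was not passed. The ratio of Timm13 to Timm8a1 differed by 0.13 (adjusted p = 0.746), that of Tomm40l to Tomm40 by -0.07 (adjusted p = 0.746), that of Pmpca to Pmpcb by -0.09 (adjusted p = 0.746) and that of Hspa9 to Grpel1 by 0.36 (adjusted p = 0.167). With 1 array left out, the adjusted p of the 3 pairs that passed reached 0.0556 in 9, 8 and 8 of 10 cases for Hspe1, Timm10 and Timm17a, with their directions kept. At 9 arrays the test has only 126 assignments.

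**Figure D4:**
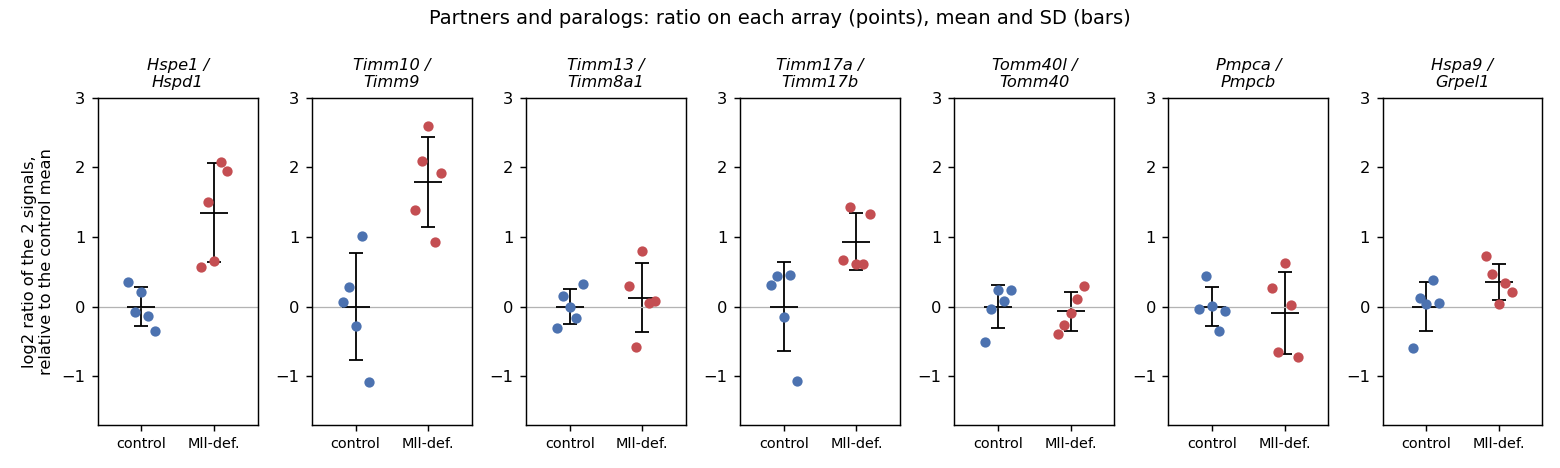
Log2 ratio of the signals of 7 pairs of partners or paralogs on each array, set relative to the control mean; bars give the mean and SD of 5 arrays. The ratios of Hspe1 to Hspd1 and of Timm17a to Timm17b do not overlap between the groups, that of Timm10 to Timm9 overlaps in 1 Mll-deficient and 1 control array, and the other 4 overlap.

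Other genes of import, processing and proteolysis also rose. Of 41 tested, 8 rose, 0 fell and 33 did not pass, with a median of 0.31. Over all tested genes, 3.76% were called higher and 1.76% lower. Chchd4 and Gfer encode the disulphide relay of the intermembrane space that oxidises the small Tims as they enter. Chchd4 rose from 1102 ± 78.8 to 1875 ± 136 (SD, n = 5 each), by 0.76 ± 0.17 (SE, adjusted p = 0.0168), and Gfer rose from 249.8 ± 61.8 to 601 ± 232 (SD, n = 5 each), by 1.16 ± 0.26 (SE, adjusted p = 0.0168). Both were higher on all 5 Mll-deficient arrays than on any control array, as were 10 of the 41, against 4.42% of all tested genes. Htra2, a protease of the intermembrane space (0.90 ± 0.19 SE, adjusted p = 0.0125), and Pitrm1, which degrades cleaved presequences in the matrix (1.10 ± 0.24 SE, adjusted p = 0.0161), rose as well. Mtx1, an outer membrane partner of Samm50 (0.68 ± 0.19 SE, adjusted p = 0.0487), Stoml2, a scaffold protein related to prohibitins (0.79 ± 0.22 SE, adjusted p = 0.0441), and Micos10 and Micos13, subunits of the cristae-organising MICOS complex (0.73 ± 0.20 SE, adjusted p = 0.0425, and 0.96 ± 0.26 SE, adjusted p = 0.0402), completed the list. The count was 3 without Mll-deficient replicate 3 or 5, 5 without Mll-deficient replicate 4, and 4 without control replicate 1, 3 or 4 or Mll-deficient replicate 1. In these fits, 1.92% to 2.82% of all tested genes were called higher.

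Related gene lists are given beside the members for scale. Over all tested genes, 3.76% were called higher and 1.76% lower, with a median log2 difference of -0.04. Of 76 tested mitochondrial ribosomal protein genes, 17 rose and 0 fell (median log2 difference 0.62). Among 76 tested genes of oxidative phosphorylation, 10 rose and 0 fell (median 0.47). Of 8 subunits of the cytosolic chaperonin CCT, 1 rose and 0 fell (median 0.58). The median over the import and folding members was 0.56, and differences between the lists were not tested.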

How the data were processed

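RNA from 5 control and 5 Mll-deficient mice was measured on 1 array each. The deposited values are linear signal intensities made by the authors with MAS5 5.0, per the submitters' processing notes, and scaled per array. Here 16 was added before taking log2 of the deposited intensity. Of 45101 probe sets, 34958 named 1 gene, and symbols were updated through Entrez IDs to the RefSeq GRCm38.p6 table. The brightest probe set stood for each gene, genes above the 40th percentile were kept (12580), and limma 3.58.1 in R 4.3.3 (lmFit, eBayes with trend) gave p-values adjusted by Benjamini-Hochberg, with a threshold of 0.05. The procedure was also run on simulated data with independent normal values for each gene. These held no unlike array and no differences in RNA quality, so the run does not cover such features of the real arrays. Replicates are separate mice, and their number limits the precision. Values on every array are given for members that passed, those up to the 12 smallest p-values, and Hspd1, Hspe1, Hspa9, Tomm20, Tomm40 and Timm23. Members and lists were chosen with earlier results of these data known, and partner pairs and motifs after values were seen. Same-numbered mice did not deviate together (correlations 0.08, 0.09, -0.17, -0.23 and 0.28), so numbers were not used as pairs. Alternatives covered the offset, normalization, filter, probe set choice, trend, array weights, replicate block, RNA quality and each array left out.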

Additional observations from a re-analysis of the deposited data

Results flagged for a closer look

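In 64 groups of 5 arrays (each tested member in each group), 2 held an array farther from the others than Dixon's 95% limit of 0.71 of the range, where chance gives about 1 group in 20. Both were control replicate 5, the array with the lowest correlation to its group. Hspd1 read 14845 there, above the other controls, and its log2 difference of 0.40 became 0.50 (adjusted p = 0.0688, limma) without that array. Timm8a1 read 375 there, below the other controls, and its rise of 1.004 became 0.85 (adjusted p = 0.0143, limma) without it.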

How the results depend on the processing

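Members called higher numbered 9 to 15 over the 11 alternatives that kept every array and 7 to 14 with 1 array left out, with 0 called lower in each, where 2.04% to 7.69% and 1.92% to 4.40% of all tested genes were called higher. The replicate block gave 9 members, with Hspa9 and Tomm40l lost and Tomm40 gained, and 5 other import genes. Genes called over the whole array numbered 1610 with the RNA quality covariate and 317 to 875 with 1 array left out, against 694. Other import genes called higher numbered 4 without the filter, 5 with the mean of all probe sets, 5 without the intensity trend and 3 to 9 with 1 array left out, against 8. Small differences changed sign: Timm17b was -0.014 with the RNA quality covariate and -0.083 to 0.26 with 1 array left out. Tomm34 was 0.053 with median centring, 0.025 with the RNA quality covariate and -0.15 to 0.065 with 1 array left out. With the mean of all probe sets, Timm22 was -0.095 and Timm9 was 0.12. Among partner ratios, chosen after seeing the data, Tomm40l to Tomm40 was 0.091 with an offset of 64 and -0.20 to 0.012 with 1 array left out, Pmpca to Pmpcb was 0.037 with the mean of all probe sets and -0.27 to 0.064 with 1 array left out, and Timm13 to Timm8a1 was -0.039 to 0.31 with 1 array left out. The cause of these changes was not tested. Dim probe sets such as those of Timm9 limit what can be read.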

Other observations

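Genes of mitochondrial biogenesis and of the stress response were read beside the members. For scale, 3.76% of all tested genes were called higher and 1.76% lower. Of 13 tested biogenesis genes, 2 rose, with a median log2 difference of 0.12: Pprc1, a coactivator of the PGC-1 family, by 0.86 ± 0.24 (SE, adjusted p = 0.0436, limma), and Myc by 0.79 ± 0.22 (SE, adjusted p = 0.0455, limma). Of 6 tested stress genes, 1 rose, with a median of 0.18. It was Asns, asparagine synthetase, a target of the amino acid response, which rose from 502 ± 113 to 1437 ± 443 (SD, n = 5 each), by 1.45 ± 0.25 (SE, adjusted p = 0.00397, limma). The other 5 did not pass and differed in sign. Ddit3, Atf5 and Atf4 lay at 0.54, 0.33 and 0.03, and Trib3 and Chac1 at -0.46 and -0.75.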
